A study of Mus musculus with 12 samples.

Results

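A set of 42 genes was at or below 1/2 of its vehicle level on both sampled days in mouse embryonic stem cells (mESCs) treated to delete *Prdm10*. Each expected count was divided by the total of its library to give CPM (counts per 1e6 counts), and CPM were averaged over the 3 libraries of a group. The files listed 54146 genes, of which 12117 had a mean of at least 2 CPM over the 12 libraries. Of these, 0.503% had a log2 ratio of OHT to EtOH of -1 or lower at Day 2 and 1.08% at Day 4, after 0.1 CPM was added to both means, and 52 (0.429%) had it on both days. The rule then left out mitochondrially encoded genes and 10 named genes (*Eef1d*, *Ss18*, *Flcn*, *Selenow*, *Nmral1*, *Galnt10*, *Mpst*, *Madd*, *Sri* and *Lsr*), which gave the 42. The genes were thus chosen by the same OHT and EtOH values that are described below, which are given without a test.

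The cells came from C57BL/6 blastocysts, carried floxed alleles of *Prdm10* (*Prdm10* F/F) and expressed the tamoxifen-activated recombinase CreERT2 from the ROSA26 locus. They received 50 nM 4-hydroxytamoxifen (OHT) or its solvent ethanol (EtOH) for 24 h and were harvested at Day 2 or Day 4. The 4 groups, EtOH and OHT at each day, held 3 libraries each, and all of them shared the floxed alleles, the recombinase and growth in serum with LIF. Library totals ran from 35017667 to 41409992 expected counts. The labels do not say whether the libraries of a group came from separate cultures, so that spreads may be technical.

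PRDM10 belongs to the PR domain family of zinc finger proteins and binds DNA in a sequence-specific manner, mostly at promoters. A promoter-bound activator sets how often its target genes are transcribed. When such a factor is removed, the RNA that is left at a given time depends on how much transcription continues without the factor and on how long the existing transcripts last. The 42 genes have no single pathway in common by their known functions. They were sorted into 8 classes by textbook function, of which 11 concerned the cytoskeleton, cell surface and axons, 8 lipids, lysosomes and glycans, 7 signalling and ubiquitin, 4 redox chemistry, and 3 each nucleotides and chromatin, mitochondria, membrane trafficking, and RNA and transcription.

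The sequences at the start sites of these genes are shown first, since the study assigned most of the genes to PRDM10 binding sites. Its ChIP-seq from such mESCs, a measurement that does not use RNA levels, gave a list of bound genes that held 41 of the 42, the exception being *Gm14440*. The same list held 3.59% of the 12117 genes at 2 CPM or more (435 genes). The study also tested recombinant PRDM10 on a 28-base gel shift probe. The wild-type probe (WT) is shown with the letters of the motif searched here in capitals, namely TGGT, then 5 bases of any kind, then CC. In the mutant probe (MUT), the capitals mark the 8 bases that differ from WT.
WT: ctggcacagTGGTcgcgcCCggcccgcc
MUT: ctggcacagCAACcgcATTTggcccgcc

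Promoter windows from RefSeq (GRCm38.p6), 250 bases before to 50 bases after an annotated start, were found for 30 of the 42 genes by symbol or synonym, in 47 windows. This spaced motif, on either strand, was present in a window of 21 of these 30 genes (70%). It was present for 42.2% of 320 other bound genes at 2 CPM or more, for 16.9% of all 9270 genes at 2 CPM or more with a window, and for 15.6% of all 27025 genes in the table. The motif was taken from the study's ChIP-seq and probe work, so that its presence near bound genes is no separate evidence of binding. A stricter spelling, TGGT, any base, CGG, any base and CC, was found in 0 of the 30 genes and in 5.62% of the other bound genes. The WT probe, which PRDM10 bound, does not carry this spelling itself. These shares therefore do not show which genes have the better site for PRDM10. The median GC content was 61.7% in the 47 windows, 62% in those of the other bound genes and 61% in those of all genes at 2 CPM or more. It was lower, 52.7%, in those of all genes in the table. Genes with more windows have more places for a match. Counted per window, the motif was present in 57.4% of the 47, 33.3% for the other bound genes, 14.2% for all genes at 2 CPM or more and 13.8% for all genes in the table.

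**Figure D1:**
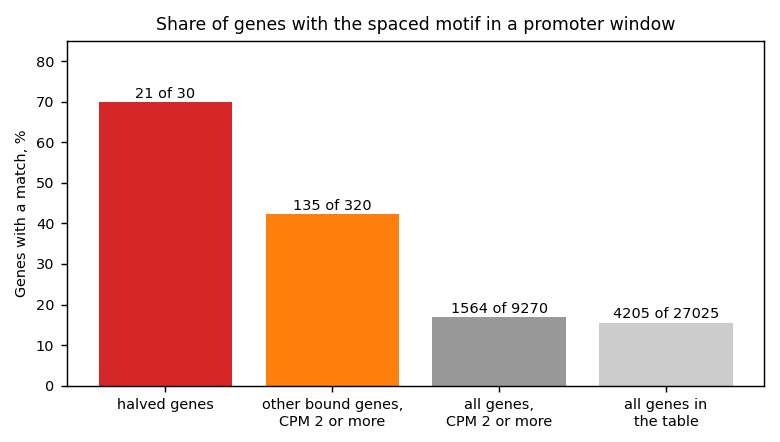
The bars give the percentage of genes with the spaced motif on either strand in at least 1 RefSeq promoter window, for the genes halved on both days, for other bound genes, for all genes at 2 CPM or more and for all genes in the table. The first bar stands at 70.0% and the last at 15.6%.

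The 21 genes held 30 distinct matches, of which 19 read in the direction of the gene. Of those 19, 12 began between 55 and 10 bases before the annotated start, 1 in each of 12 genes, a range chosen after the positions had been seen. These 12 matches are printed with 12 bases on each side, read so that TGGT comes first, with the fixed letters in capitals. They show what the genes share and how freely the 5 middle bases vary.
Dlst, chr12:85110770-85110804, plus strand: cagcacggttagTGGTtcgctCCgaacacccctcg
Fam173b, chr15:31602089-31602123, plus strand: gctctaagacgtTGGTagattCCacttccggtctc
Frat2, chr19:41848139-41848173, minus strand: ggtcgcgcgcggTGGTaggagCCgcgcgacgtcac
Gng3, chr19:8839235-8839269, minus strand: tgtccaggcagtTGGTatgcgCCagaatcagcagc
Gripap1, chrX:7789935-7789969, plus strand: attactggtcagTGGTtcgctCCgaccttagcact
Hap1, chr11:100356130-100356164, minus strand: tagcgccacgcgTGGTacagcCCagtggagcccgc
Hdac2, chr10:36974487-36974521, plus strand: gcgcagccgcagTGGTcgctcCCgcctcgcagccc
Mia2, chr12:59131423-59131457, plus strand: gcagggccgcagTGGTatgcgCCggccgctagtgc
Mlst8, chr17:24479102-24479136, minus strand: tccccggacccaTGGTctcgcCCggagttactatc
Ptcd2, chr13:99344671-99344705, minus strand: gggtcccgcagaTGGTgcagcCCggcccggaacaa
Sept11, chr5:93093362-93093396, plus strand: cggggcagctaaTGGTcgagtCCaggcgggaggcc
Tpbg, chr9:85842811-85842845, plus strand: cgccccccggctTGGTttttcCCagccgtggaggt
*Dlst* and *Gripap1* carried the same 11 letters, although they lie on chromosomes 12 and X. *Gng3* and *Mia2*, on chromosomes 19 and 12, shared another 11 letters. *Hap1*, the gene with the lowest remaining level at Day 4, had 2 matches in its window, 1 on each strand. Its whole window (chr11:100356079-100356378, minus strand) shows how close the second match, in the sense direction, lies to the start.
Hap1: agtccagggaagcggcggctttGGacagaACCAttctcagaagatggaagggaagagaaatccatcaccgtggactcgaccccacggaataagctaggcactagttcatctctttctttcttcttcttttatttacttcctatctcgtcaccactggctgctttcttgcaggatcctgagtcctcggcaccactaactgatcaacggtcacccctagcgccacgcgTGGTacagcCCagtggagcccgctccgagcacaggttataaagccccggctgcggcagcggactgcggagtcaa
The window of *Dlst* (chr12:85110583-85110882, plus strand) is shown because it also spans the start of the oppositely transcribed gene *Prox2*.
Dlst: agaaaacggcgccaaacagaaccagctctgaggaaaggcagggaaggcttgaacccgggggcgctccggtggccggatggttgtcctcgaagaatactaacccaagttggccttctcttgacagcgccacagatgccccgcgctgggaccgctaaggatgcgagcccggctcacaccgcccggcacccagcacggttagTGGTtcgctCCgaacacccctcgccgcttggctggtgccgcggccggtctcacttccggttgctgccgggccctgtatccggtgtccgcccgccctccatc

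A median of 31.6% of the vehicle level remained at Day 2 and 18.9% at Day 4 over the 42 genes. This residual level is the CPM of an OHT-labelled library as a percentage of the EtOH mean of the same day, and its SD covers the 3 OHT-labelled libraries, not the error of the EtOH mean. It ranged from 6.51% to 49.4% at Day 2 and from 2.66% to 42.6% at Day 4. At most 10% was left of 6 genes at Day 2 and of 8 at Day 4, and at most 20% of 12 and 22 genes. *Gm14440*, whose labels overlapped on both days, was among the 6 at Day 2, with 7% ± 12.1 (SD, n = 3). It also set the top of the range at Day 4, where *Epb41l4aos* was next with 41.5%. In 41 genes the 3 OHT-labelled libraries lay below the 3 EtOH-labelled ones on both days, which the rule favours. Over all genes at 2 CPM or more this held for 17.1% at Day 2 and 30.1% at Day 4. The median log2 ratio over all genes was 0.011 at Day 2 and 0.00072 at Day 4. In bulk RNA, fewer cells of a type and less RNA per cell cannot be told apart.

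**Figure D2:**
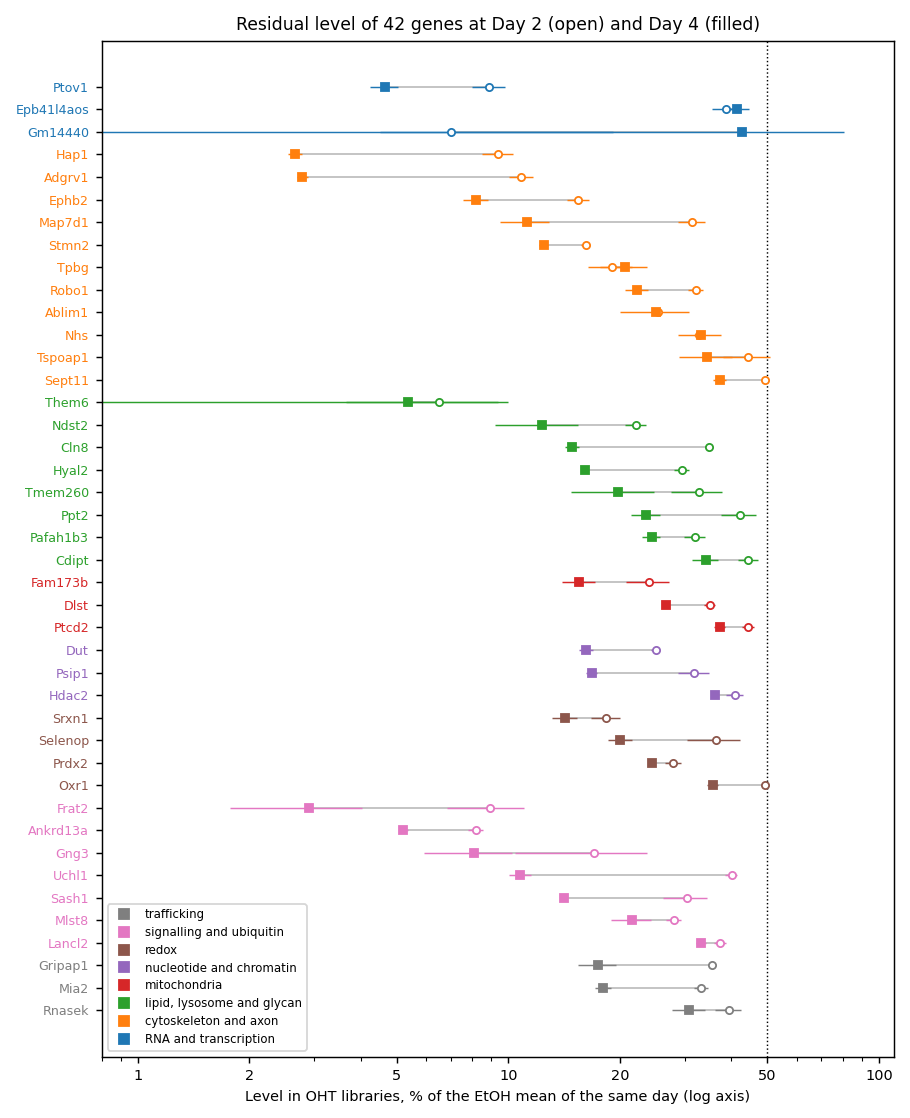
Each row is 1 of the 42 genes, coloured by class, with the residual level at Day 2 (open circle) and Day 4 (filled square) on a log axis and the SD of 3 OHT-labelled libraries as bars, the lower bar of *Gm14440* at Day 2 running off the axis. The dotted line marks 50%, and most filled squares lie to the left of the open circles of the same gene.

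Some facts of the whole series bear on these values. *Prdm10* itself had 20.6 CPM ± 0.869 in EtOH and 57.3 ± 1.97 in OHT at Day 2, and 22.6 ± 1.43 and 52.2 ± 1.68 at Day 4 (SD, n = 3), so that it was higher in the OHT-labelled libraries. A total over the whole gene includes the exons that were not floxed and cannot show the deletion, and libraries are therefore named by their labels. The study itself checked recombination in such cells on genomic DNA, on transcripts of the floxed exon and on PRDM10 protein. All 8 stem cell markers were present at 1 TPM or more (RSEM transcript abundance, a level per length), with a sum between 2365 and 2849.6 TPM over the 12 libraries. This sum was higher in OHT on both days. At Day 2 it ran from 2544.8 to 2581.8 TPM in EtOH and from 2589.2 to 2759.9 in OHT. At Day 4 it ran from 2365.1 to 2648.3 TPM in EtOH and from 2748.0 to 2849.6 in OHT. The largest part was *Dppa5a*, with means of 1267.3 TPM in EtOH and 1421.8 in OHT at Day 2, and 1223.0 and 1435.6 at Day 4. The markers did not move alike. At Day 2 *Pou5f1*, *Sox2* and *Tdgf1* were lower in OHT, *Klf4* was level, and *Nanog*, *Zfp42* and *Esrrb* were higher. At Day 4 *Pou5f1* and *Zfp42* were lower and the others higher. Of 8 fibroblast feeder markers, *Thy1* alone passed 1 TPM, and no endoderm marker of 4 did. The summed feeder markers ran from 2.73 to 3.44 TPM in EtOH and 2.34 to 2.89 in OHT at Day 2, and from 2.34 to 3.3 and 1.09 to 1.48 at Day 4, where *Thy1* had a mean of 2.18 TPM in EtOH and 0.777 in OHT. The other 7 feeder markers, collagen genes among them, stayed below 0.5 TPM, and the part of these cells in the values of the 42 genes was not tested. Of 7 neuronal markers 3 reached 1 TPM, and *Dcx*, a defining one, was at or near 0.

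Genes of the cytoskeleton, the cell surface and axons made up the largest class. Many of them are best known from neurons, but in these mESCs they were measurable in every EtOH-labelled library. Their residual levels ran from 9.4% to 49.2% at Day 2 and from 2.66% to 37.2% at Day 4. *Hap1* (chr11:100347327-100356128, minus strand) encodes huntingtin-associated protein 1, an adaptor for vesicle transport along microtubules. It measured 38.6, 38.3 and 37.3 CPM in the EtOH-labelled libraries of Day 2 and 3.83, 3.7 and 3.2 in the OHT-labelled ones. The values were 46.6, 48.6 and 50.9 against 1.25, 1.36 and 1.28 CPM at Day 4, where the OHT-labelled libraries kept the lowest share of any of the 42 genes, 2.66% ± 0.112 (SD, n = 3) after 9.4% ± 0.878 at Day 2. *Adgrv1*, a very large adhesion receptor needed in hair cells of the ear, measured 22.5, 23.8 and 26.5 CPM in the EtOH-labelled libraries of Day 2 and 2.72, 2.41 and 2.77 in the OHT-labelled ones. It measured 23.6, 27.1 and 26.8 against 0.74, 0.691 and 0.727 CPM at Day 4, and its residual levels were 10.8% ± 0.808 and 2.78% ± 0.0972 (SD, n = 3). RSEM's mean length of the *Adgrv1* transcripts was 2785 bases in EtOH at Day 2, short for so large a protein. Whether the counts came from the transcript of the full receptor was not tested. *Hap1* and *Adgrv1* were close at both days, and their residual levels at Day 4 overlapped within 1 SD.

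*Stmn2*, a stathmin that destabilises microtubules and serves axon growth, was among the most abundant of the class by CPM. It had 163, 162 and 158 CPM in the EtOH-labelled libraries of Day 2 and 25.9, 26.9 and 25.5 in the OHT-labelled ones. It had 145, 139 and 141 against 17.2, 18.2 and 17.5 CPM at Day 4, so that most of its fall was already present at Day 2, with residual levels of 16.2% ± 0.431 and 12.5% ± 0.359 (SD, n = 3). *Sept11* encodes a septin, a filament-forming GTP-binding protein of the cortex, and was the gene with the smallest fall of the class at Day 2. Its values were 272, 281 and 282 CPM in the EtOH-labelled libraries of Day 2 and 136, 135 and 139.7 in the OHT-labelled ones. They were 291, 298 and 292 against 112, 104 and 112 CPM at Day 4, which left 49.2% ± 0.91 and 37.2% ± 1.53 (SD, n = 3) on the respective days, and no OHT-labelled library overlapped an EtOH-labelled one. *Tpbg*, a surface glycoprotein of the trophoblast, had 9.27, 7.73 and 8.42 CPM in the EtOH-labelled libraries of Day 2 and 1.85, 1.42 and 1.57 in the OHT-labelled ones. It had 7.64, 6.97 and 7.92 against 1.73, 1.31 and 1.62 CPM at Day 4, and the OHT-labelled libraries of the respective days overlapped each other. The other genes of the class were *Ephb2*, a receptor for ephrin-B ligands, *Robo1*, a receptor for Slit guidance cues, *Map7d1*, a microtubule-binding protein, *Ablim1*, an actin-binding LIM protein, *Nhs*, a regulator of actin and cell shape, and *Tspoap1*, a binding partner of active zone proteins. Their residual levels at Day 4 were 8.18% ± 0.628 for *Ephb2*, 11.2% ± 1.7 for *Map7d1*, 22.2% ± 1.56 for *Robo1*, 25% ± 0.126 for *Ablim1*, 33.1% ± 4.39 for *Nhs* and 34.5% ± 5.68 for *Tspoap1* (SD, n = 3). The summed level of the 7 neuronal markers was lower in OHT at Day 4, as these genes were, and higher at Day 2. It ran from 61.4 to 63.7 TPM in EtOH and from 65.8 to 68.2 TPM in OHT at Day 2, and from 65.8 to 69.9 and from 39.0 to 41.8 TPM at Day 4, nearly all of it *Tubb3*. Its part in the values of this class was not tested.

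In the class of signalling and ubiquitin genes, *Frat2*, *Ankrd13a*, *Gng3* and *Uchl1* were left with at most 10.8% of their vehicle level at Day 4. *Ankrd13a* encodes a ubiquitin-binding protein that acts on internalised receptors. It had 70.4, 69.9 and 68.8 CPM in the EtOH-labelled libraries of Day 2 and 5.55, 5.54 and 6 in the OHT-labelled ones. With 75.9, 79.3 and 76.7 against 3.9, 4.04 and 4.14 CPM at Day 4, its residual levels were 8.17% ± 0.376 and 5.21% ± 0.155 (SD, n = 3). *Frat2* binds the kinase GSK3 and thereby favours WNT signalling. It was low, with 7.17, 6.81 and 6.37 CPM in the EtOH-labelled libraries of Day 2 and 0.529, 0.521 and 0.771 in the OHT-labelled ones. The values of 4.8, 5.16 and 4.85 against 0.128, 0.205 and 0.0969 CPM at Day 4 correspond to as few as 4 counts in a library, and the residual levels were 8.95% ± 2.09 and 2.9% ± 1.13 (SD, n = 3). *Gng3*, a G protein gamma subunit, was as low, with residual levels of 17.1% ± 6.65 and 8.08% ± 2.17 (SD, n = 3).

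*Uchl1*, a ubiquitin hydrolase that is abundant in neurons, had less than 50% of its Day 4 log2 fall at Day 2. It measured 78.6, 80.7 and 77.5 CPM in the EtOH-labelled libraries of Day 2 and 32.8, 31.6 and 30.4 in the OHT-labelled ones. It measured 78.3, 74.4 and 75.6 against 8.42, 7.58 and 8.65 CPM at Day 4. Its residual level thus went from 40% ± 1.49 to 10.8% ± 0.739 (SD, n = 3) while the EtOH-labelled libraries of the days lay close together. *Lancl2*, a LanC-like protein of the plasma membrane, stood at the other end of the class with 43.9, 41.1 and 43.1 CPM in the EtOH-labelled libraries of Day 2 and 15.6, 16.6 and 15.6 in the OHT-labelled ones. It had 44.9, 43 and 42.2 against 14.7, 14.5 and 13.9 CPM at Day 4, which is a residual level of 37.3% ± 1.33 and 33.1% ± 0.967 (SD, n = 3). *Mlst8*, a subunit of both mTOR kinase complexes, and *Sash1*, a scaffold of signalling proteins, kept 21.6% ± 2.68 and 14.2% ± 0.266 at Day 4 (SD, n = 3).

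**Figure D3:**
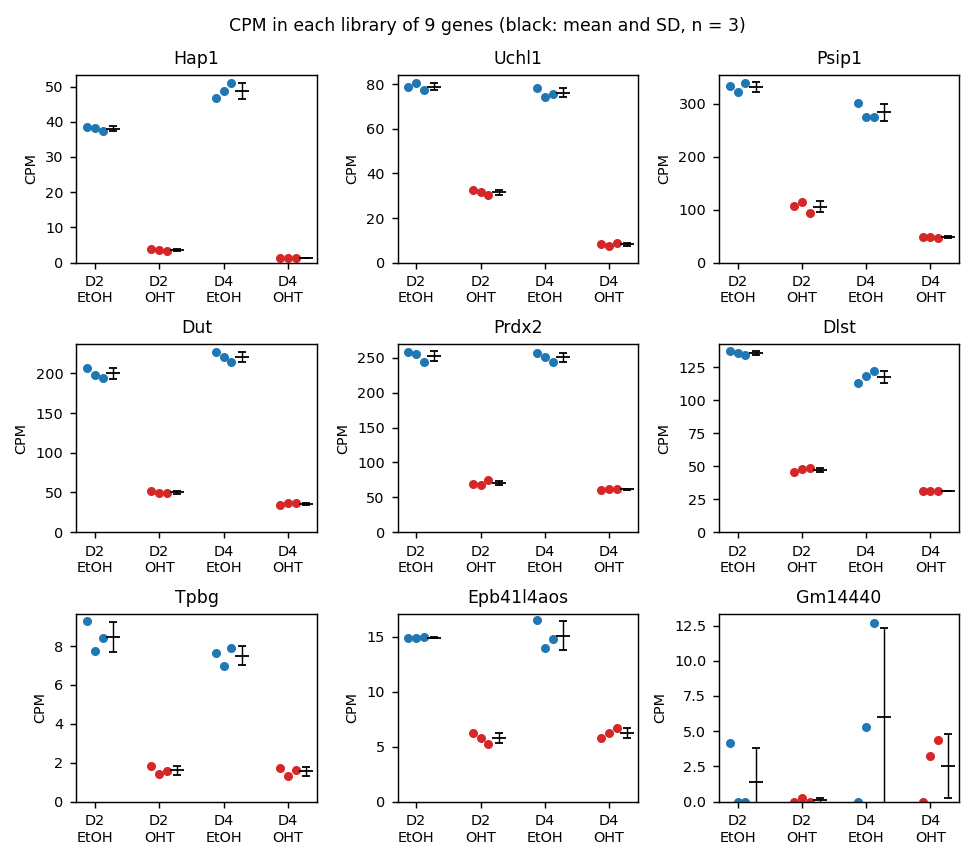
CPM in each library for 9 of the genes, with EtOH in blue, OHT in red and the mean ± SD of 3 libraries in black, each panel on its own axis from 0. Red and blue points are apart on both days in each panel except that of *Gm14440*, where they overlap.

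Redox genes were represented by 4 members that act in peroxide and selenium metabolism. *Prdx2* (chr8:84969587-84974834, plus strand), a peroxiredoxin that removes hydrogen peroxide, had the highest level per length of the 42 genes, 204 TPM over the 6 EtOH-labelled libraries. It had 258, 255 and 244 CPM in the EtOH-labelled libraries of Day 2 and 69, 67.9 and 74.2 in the OHT-labelled ones. At 257, 252 and 244 against 60.5, 62.4 and 61.3 CPM at Day 4, little further fall was seen, with residual levels of 27.9% ± 1.33 and 24.5% ± 0.381 (SD, n = 3). *Srxn1* encodes sulfiredoxin, which restores over-oxidised peroxiredoxins such as PRDX2. It had 25.5, 24.4 and 25.5 CPM in the EtOH-labelled libraries of Day 2 and 5.07, 4.49 and 4.28 in the OHT-labelled ones. It had 21.7, 22.8 and 20.9 against 2.91, 3.02 and 3.37 CPM at Day 4 and residual levels of 18.4% ± 1.63 and 14.2% ± 1.1 (SD, n = 3), so that the enzyme and one of its substrates were both below 1/2 of vehicle. *Oxr1*, which protects against oxidative damage, lay just inside the limit at Day 2, with 68.7, 70.1 and 68.8 CPM in the EtOH-labelled libraries of Day 2 and 34, 35.1 and 33.5 in the OHT-labelled ones. It had 77.2, 77.6 and 79.3 against 28.7, 28 and 26.7 CPM at Day 4, a residual level of 49.4% ± 1.19 and 35.6% ± 1.28 (SD, n = 3). The mean length of its transcripts as RSEM estimated it also changed in OHT, by -28.3% at Day 2 and -31.6% at Day 4. CPM are not scaled by length, so that the fall of *Oxr1* per length was smaller than its fall in CPM. *Selenop*, a secreted carrier of selenium, kept 36.3% ± 5.96 at Day 2 and 20.1% ± 1.49 at Day 4 (SD, n = 3).

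The nucleotide and chromatin class held abundant genes. *Dut* (chr2:125247190-125258608, plus strand) encodes dUTPase, which keeps uracil out of DNA and supplies the precursor of dTTP, and was second per length with 189 TPM in EtOH. It had 207, 198 and 194 CPM in the EtOH-labelled libraries of Day 2 and 51.6, 49.5 and 48.7 in the OHT-labelled ones. It had 227, 221 and 214 against 33.9, 36.6 and 36.6 CPM at Day 4, and its residual levels were 25% ± 0.727 and 16.2% ± 0.703 (SD, n = 3). *Psip1*, also known as LEDGF, tethers transcription complexes to chromatin. It measured 333, 323 and 340.3 CPM in the EtOH-labelled libraries of Day 2 and 107, 115 and 94.6 in the OHT-labelled ones. It measured 302, 275 and 276 against 49, 48.5 and 45.8 CPM at Day 4, so that 31.8% ± 3.11 and 16.8% ± 0.601 (SD, n = 3) remained on the respective days. *Hdac2*, a histone deacetylase of several corepressor complexes, kept the highest share of the class, with 149.9, 148 and 153 CPM in the EtOH-labelled libraries of Day 2 and 64.2, 62.2 and 57.8 in the OHT-labelled ones. It had 173, 157 and 156 against 59.1, 58.4 and 57.9 CPM at Day 4, and the OHT-labelled libraries of the respective days overlapped, at 40.9% ± 2.19 and 36.1% ± 0.379 (SD, n = 3).

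The mitochondrial class held 3 genes, all encoded in the nucleus. *Dlst* (chr12:85110833-85134845, plus strand), the E2 subunit of the 2-oxoglutarate dehydrogenase complex in the citric acid cycle, had 137, 136 and 134 CPM in the EtOH-labelled libraries of Day 2 and 45.6, 48.1 and 48.5 in the OHT-labelled ones. It had 113, 119 and 122 against 31, 31.4 and 31.5 CPM at Day 4 and residual levels of 34.9% ± 1.14 and 26.6% ± 0.205 (SD, n = 3). *Ptcd2*, a pentatricopeptide protein that acts on mitochondrial RNA, had 49.3, 44.7 and 45 CPM in the EtOH-labelled libraries of Day 2 and 20, 21.5 and 20.3 in the OHT-labelled ones. It had 44.9, 43.6 and 44.5 against 16.6, 16.9 and 15.9 CPM at Day 4, at 44.4% ± 1.66 and 37.2% ± 1.23 (SD, n = 3). *Fam173b* (now *Atpsckmt*), which methylates subunit c of ATP synthase, was lower in level, with 7.97, 9.51 and 8.36 CPM in the EtOH-labelled libraries of Day 2 and 1.96, 1.86 and 2.37 in the OHT-labelled ones. Its 8.01, 8.53 and 9.06 against 1.17, 1.38 and 1.43 CPM at Day 4 gave the lowest residual level of the class, 15.6% ± 1.59 (SD, n = 3).

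Genes of lipid, lysosome and glycan metabolism kept between 5.38% and 34.1% at Day 4. *Cln8*, which carries newly made lysosomal enzymes out of the endoplasmic reticulum, had 39.8, 40.4 and 37.4 CPM in the EtOH-labelled libraries of Day 2 and 13.3, 13.8 and 13.7 in the OHT-labelled ones. It had 41.7, 39.7 and 42.4 against 6.1, 5.91 and 6.42 CPM at Day 4, so that its residual level went from 34.7% ± 0.731 to 14.9% ± 0.619 (SD, n = 3). *Hyal2*, a hyaluronidase, had 29.9, 29.4 and 28.7 CPM in the EtOH-labelled libraries of Day 2 and 9.07, 8.27 and 8.54 in the OHT-labelled ones. It had 31.1, 32.4 and 31.7 against 5.1, 5.2 and 5.06 CPM at Day 4, at 29.4% ± 1.38 and 16.1% ± 0.218 (SD, n = 3). *Cdipt*, the phosphatidylinositol synthase, had 25.6, 28.1 and 26.1 CPM in the EtOH-labelled libraries of Day 2 and 12.1, 11 and 12.4 in the OHT-labelled ones. It had 32.1, 30.6 and 30.4 against 11.6, 10.2 and 10.1 CPM at Day 4, at 44.4% ± 2.77 and 34.1% ± 2.7 (SD, n = 3), the highest residual level of the class on both days. *Them6*, a member of the thioesterase superfamily, was left with 6.51% ± 2.86 at Day 2 and 5.38% ± 4.58 at Day 4 (SD, n = 3), with as few as 1 count in a library. *Ndst2*, which sulfates heparan chains, *Pafah1b3*, a catalytic subunit of a platelet-activating factor acetylhydrolase, *Ppt2*, a lysosomal thioesterase, and *Tmem260*, an O-mannosyltransferase, kept 12.3% ± 3.11, 24.4% ± 1.36, 23.5% ± 2.08 and 19.8% ± 4.98 at Day 4 (SD, n = 3).

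Among the trafficking genes, *Mia2*, which helps load large cargo at exit sites of the endoplasmic reticulum, had 51.6, 51.1 and 55.2 CPM in the EtOH-labelled libraries of Day 2 and 16.7, 17.4 and 18.2 in the OHT-labelled ones. It had 55.3, 56.3 and 51.7 against 9.8, 9.37 and 10.3 CPM at Day 4, at 33.2% ± 1.42 and 18% ± 0.849 (SD, n = 3). *Gripap1*, a protein of recycling endosomes, had 7.49, 8.3 and 8.58 CPM in the EtOH-labelled libraries of Day 2 and 2.88, 2.81 and 2.94 in the OHT-labelled ones. It had 9.94, 11.1 and 10.3 against 1.79, 1.64 and 2.06 CPM at Day 4, at 35.4% ± 0.835 and 17.5% ± 2.04 (SD, n = 3). *Rnasek*, a membrane protein that associates with the vacuolar proton pump, had 7.32, 8.41 and 8.04 CPM in the EtOH-labelled libraries of Day 2 and 2.84, 3.19 and 3.33 in the OHT-labelled ones. It had 9.93, 9.08 and 9.76 against 2.63, 3.2 and 3.03 CPM at Day 4, at 39.4% ± 3.17 and 30.8% ± 3.08 (SD, n = 3), and the OHT-labelled libraries of the respective days overlapped.

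The last class, RNA and transcription, joined genes that behaved differently. *Ptov1*, an adaptor of transcription and translation related to a Mediator subunit, had 66.8, 67.2 and 61.9 CPM in the EtOH-labelled libraries of Day 2 and 5.44, 6.48 and 5.48 in the OHT-labelled ones. It had 57.2, 64.2 and 62.3 against 2.93, 2.56 and 3.03 CPM at Day 4, and 8.89% ± 0.9 and 4.64% ± 0.404 (SD, n = 3) remained. *Epb41l4aos*, a transcribed antisense partner of *Epb41l4a* and the only gene of the 42 that does not code for protein, had 14.9, 14.9 and 15 CPM in the EtOH-labelled libraries of Day 2 and 6.24, 5.84 and 5.28 in the OHT-labelled ones. It had 16.5, 13.9 and 14.8 against 5.77, 6.27 and 6.73 CPM at Day 4, at 38.8% ± 3.21 and 41.5% ± 3.21 (SD, n = 3). *Gm14440*, a zinc finger gene of a multicopy family on chromosome 2, had 4.18, 0 and 0 CPM in the EtOH-labelled libraries of Day 2 and 0, 0.293 and 0 in the OHT-labelled ones. Its 0, 5.27 and 12.7 against 0, 3.26 and 4.39 CPM at Day 4 overlapped as well. RSEM gave it a posterior SD of 71.1 to 162 counts per library beside expected counts of 0 to 478, so that its level is uncertain in each library. Its labels overlapped on both days, and its values say nothing on pace.

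**Figure D4:**
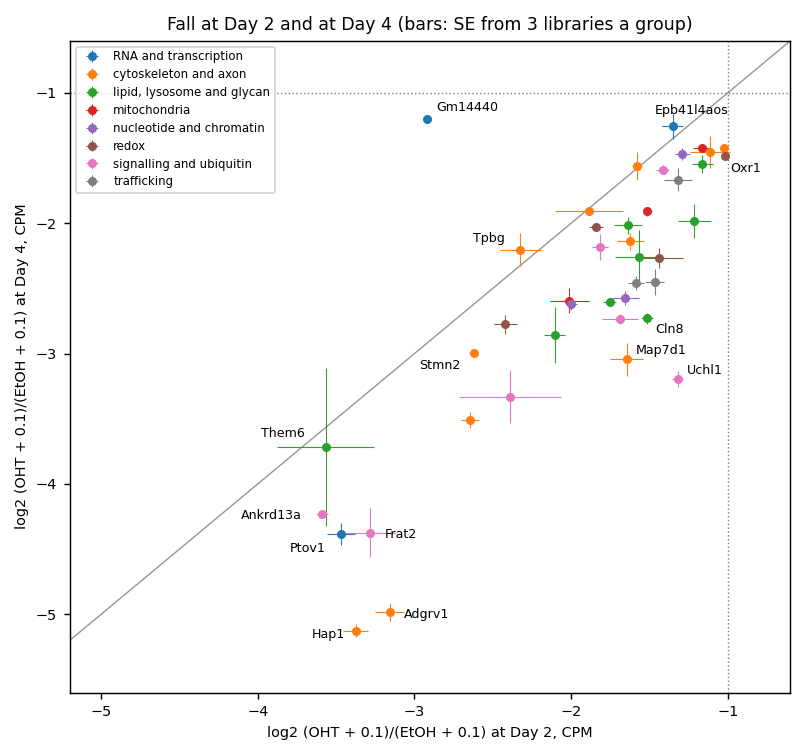
Log2 ratio of OHT to EtOH in CPM (0.1 added) at Day 2 on the x axis and Day 4 on the y axis for the 42 genes, with SEs from the 3 libraries a group except for *Gm14440*, whose SEs exceed the range of the plot. Points below the diagonal had a lower ratio at Day 4 than at Day 2, by over 1.5 for *Uchl1*, *Adgrv1* and *Hap1*, and the dotted lines mark the limit of -1.

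As to pace, 38 of the 42 genes had a lower log2 ratio at Day 4 than at Day 2, and 4 (*Tpbg*, *Nhs*, *Epb41l4aos* and *Gm14440*) a higher one. The median further change was -0.55 on the log2 scale, and the median share of the Day 4 log2 fall that was present at Day 2 was 76%. Without *Gm14440*, whose labels overlapped, at least 50% of the Day 4 log2 fall was present at Day 2 in 40 of 41 genes and at least 90% of it in 6. The single gene with less was *Uchl1*, with 41.2%. The rule demanded a log2 ratio of -1 or lower at Day 2, so that genes that fell mainly later were left out. Before the named genes were left out, 131 genes were halved at Day 4 and 52 on both days. High Day 2 shares are thus partly set by the rule and are given as a description. A further fall of 1 or more on the log2 scale was seen in 7 genes, *Hap1*, *Adgrv1*, *Frat2*, *Uchl1*, *Map7d1*, *Sash1* and *Cln8*. It was -1.88 ± 0.071 (SE) for *Uchl1*, -1.83 ± 0.12 (SE) for *Adgrv1* and -1.75 ± 0.093 (SE) for *Hap1*, and the SEs come from the spread of the 12 libraries. For the genes with nearly all of their fall at Day 2 it was -0.019 ± 0.21 (SE) for *Ablim1*, 0.018 ± 0.11 (SE) for *Nhs*, 0.10 ± 0.12 (SE) for *Epb41l4aos* and 0.12 ± 0.18 (SE) for *Tpbg*, each less than 1 SE from 0. Among abundant genes, *Psip1* changed by a further -0.92 ± 0.10 (SE) and *Dut* by -0.62 ± 0.058 (SE), and *Prdx2* by -0.19 ± 0.053 (SE) and *Hdac2* by -0.18 ± 0.067 (SE). The share of the fall present at Day 2 was 64.3% for *Psip1*, 76.2% for *Dut*, 90.8% for *Prdx2* and 87.8% for *Hdac2*. The 0.1 CPM added to both means makes a fall look smaller where OHT levels are near it. *Frat2*, for example, had a mean of 0.143 CPM in OHT at Day 4. The order of the further falls and the Day 2 shares of such low genes can therefore depend on this addition.

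Between the OHT-labelled libraries of the respective days, 29 genes had 3 Day 4 libraries below the 3 Day 2 libraries, 13 overlapped and 0 lay above. Over all genes at 2 CPM or more, 34.7% lay below and 34.7% above without overlap. The Day 4 OHT mean was 23.6% of the Day 2 OHT mean for *Frat2*, 26% for *Uchl1* and 27.3% for *Adgrv1*, against 95.2% for *Hdac2* and 94.8% for *Rnasek*. These libraries also entered the rule, so that the counts are a description.

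Near the limit, *Oxr1* and *Sept11* lay just inside, with log2 ratios of -1.02 and -1.02 at Day 2. Just outside were *2410006H16Rik*, at -0.999 at Day 4 after -1.15 at Day 2, and *Timm17b*, a subunit of the mitochondrial import channel, at -0.99 at Day 2 and -1.01 at Day 4. Both were on the list of bound genes. Below the minimum of 2 CPM, 27 more genes met both ratios, 6 of them with a mean of at least 1 CPM. The lowest remaining levels among those 6 were those of *Pkia*, an inhibitor of protein kinase A, with 2.6 CPM ± 0.186 in EtOH and 0.00853 ± 0.0148 in OHT at Day 4, and *Ttll7*, a tubulin polyglutamylase, with 3.24 ± 0.323 and 0.0413 ± 0.0373 (SD, n = 3). These genes were named after their values had been seen.

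Whether the vehicle level of the 42 genes itself moved between the days was tested in the EtOH-labelled libraries, which also enter the rule as denominators. By DESeq2's Wald test with Benjamini-Hochberg adjustment over all genes (adjusted p below 0.05, mean normalised count above 100), 7 of the 42 were lower at Day 4 than at Day 2 and 6 higher. Over all 11570 genes tested, 20.5% were lower and 20.6% higher, beside 16.7% and 14.3% of the 42 genes. The count of 6 higher was 3 without EtOH replicate 1 or 3 of Day 2 or replicate 2 of Day 4. The largest called changes were those of *Frat2*, -0.48 ± 0.14 (SE, adjusted p = 0.00209), *Ppt2*, -0.46 ± 0.15 (SE, adjusted p = 0.012), *Pafah1b3*, -0.41 ± 0.082 (SE, adjusted p = 4.59e-06), *Gripap1*, 0.34 ± 0.11 (SE, adjusted p = 0.00861), and *Hap1*, 0.33 ± 0.057 (SE, adjusted p = 9.63e-08), all on the log2 scale. The rise of *Hap1* in vehicle meant that its Day 4 residual level was set against a higher denominator. *Uchl1* had -0.074 ± 0.048 (SE, adjusted p = 0.25) and did not pass.

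Of the 42 genes, 41 coded for protein, and they lay on 19 chromosomes. Their levels per length in EtOH ran from 0.847 to 204 TPM with a median of 9.56, beside 10 TPM over all genes at 2 CPM or more, as a description, since the counts behind these levels entered the rule. The effective length, RSEM's mean length of the transcripts it found, differed by over 10% without overlap of the labels in 5 genes at Day 2 (4 shorter, 1 longer in OHT) and in 4 at Day 4 (3 shorter, 1 longer). The background was 0.908% shorter and 1.18% longer at Day 2, and 0.858% and 1.71% at Day 4. *Oxr1* was shorter on both days, a change of -28.3% and -31.6%, from 3115 to 2130.1 bases at Day 4. *Cdipt* was longer on both days, by 15.6% and 22%. For these genes, the mix of transcripts that remained differed from that in vehicle as RSEM estimated it. The rule and the residual levels use CPM, which are not scaled by length, and the rule was not applied to levels per length.

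A gene that starts within 1000 bases on the opposite strand and points away can share a promoter with its neighbour. Such head-to-head neighbours outside the 42 were found for 5 genes, and 2 of the 5 neighbours were abundant enough to be tested. *Cct5*, a subunit of the chaperonin that folds actin and tubulin, starts 48 bases from *Fam173b*. It was lower on both days, by -0.23 ± 0.034 (SE, adjusted p = 6.78e-10) at Day 2 and -0.20 ± 0.032 (SE, adjusted p = 1.42e-08) at Day 4 on the log2 scale. Over all genes, 10.6% were lower and 9.17% higher at Day 2, and 21.7% and 23.5% at Day 4. *Cct5* had 973, 940.2 and 920.1 CPM in EtOH and 832, 828 and 806 in OHT at Day 4, without overlap, while *Fam173b* kept 15.6% ± 1.59. *Mrps27*, a mitochondrial ribosomal protein gene that starts 81 bases from *Ptcd2*, was higher at Day 2 by 0.18 ± 0.055 (SE, adjusted p = 0.0129) and had 0.063 ± 0.049 (SE, adjusted p = 0.356) at Day 4. The rise of *Mrps27* at Day 2 was lost without any 1 of 4 libraries (EtOH 2 or 3, OHT 1 or 2). Both neighbours were on the list of bound genes. The study assigned peaks to genes by distance, so that starts this close would share a peak. Their place on the list is thus no separate evidence of binding. *Prox2*, which starts 74 bases from *Dlst* within the window printed above, *Gm43173* and *Gm49661* were too low to be tested.

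Genes related to the 42 (paralogs, complex partners and neighbouring enzymes) were taken from a list and set beside them. Of 108 related genes outside the 42, 93 were abundant enough at Day 2 and 94 at Day 4. DESeq2 called 13 lower and 13 higher at Day 2, and 23 lower and 24 higher at Day 4, shares near the background given above for the neighbours. With library totals as size factors the counts at Day 2 were 6 lower and 17 higher, and all genes moved alike, from 1238 lower and 1068 higher to 638 and 1389. Without EtOH replicate 1 or 2, the 13 lower at Day 2 were 8 and 6, and those over all genes 586 and 710, and the 24 higher at Day 4 were 15 without OHT replicate 2. The median log2 fold change was -0.0090 at Day 2 and 0.018 at Day 4, beside -0.028 and 0.0061 over all genes tested. Called lower on both days were 7, *Uchl3*, *Uchl5*, *Lrpprc*, *Men1*, *Hdac1*, *Dctpp1* and *Sept6*, and higher on both days 7, *Ephb3*, *Txnrd1*, *Txn1*, *Cds1*, *Slit2*, *Pi4ka* and *Gpx4*.

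**Figure D5:**
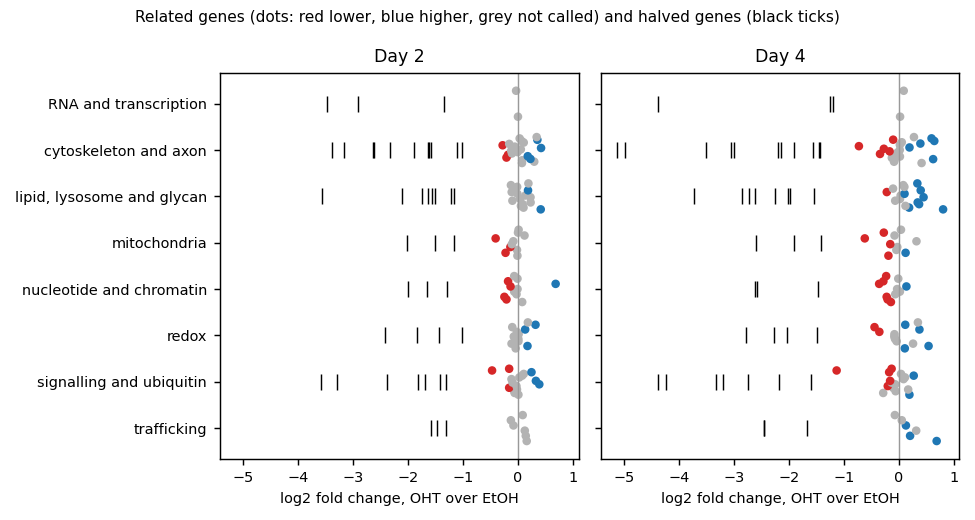
Dots are related genes above the minimum for the test, by class, with DESeq2 log2 fold changes of OHT over EtOH at Day 2 (left) and Day 4 (right), red where called lower, blue where called higher and grey otherwise; black ticks are the 42 genes on the CPM scale. Dots lie around 0 at both days, with *Uchl3* the lowest of those tested at Day 4 (-1.13).

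In the ubiquitin and signalling class, *Uchl3*, a paralog of *Uchl1* on the list of bound genes, fell by 0.47 ± 0.050 (SE, adjusted p = 2.03e-19) at Day 2 and by 1.13 ± 0.049 (adjusted p = 2.54e-113) at Day 4 on the log2 scale. It had 91.3, 93.9 and 90.2 CPM in EtOH and 41.5, 43.9 and 40.1 in OHT at Day 4. *Uchl5*, a deubiquitinase of the proteasome, was lower by -0.16 ± 0.048 (SE, adjusted p = 0.0074) and -0.13 ± 0.042 (SE, adjusted p = 0.00721). *Bap1*, a nuclear deubiquitinase, was lower at Day 4, -0.20 ± 0.040 (SE, adjusted p = 4.63e-06). *Mtor*, the kinase that MLST8 binds, was higher at Day 4, 0.27 ± 0.037 (SE, adjusted p = 3.45e-12), while *Ankrd13b* had -0.28 ± 0.18 (SE, adjusted p = 0.253). *Frat1*, the paralog of *Frat2* and also bound, was below the minimum for the test. It had 2.84 CPM ± 0.436 in EtOH and 0.135 ± 0.0664 in OHT at Day 4 (SD, n = 3). Its OHT-labelled libraries lay below the EtOH-labelled ones on both days.

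Related redox genes did not move in 1 direction, with 2 of 12 lower and 4 higher at Day 4. Over all genes tested, 21.7% were lower and 23.5% higher at Day 4, the background for this and the class counts that follow. The class counts are small, and no class was tested as a set. *Gpx4*, the selenoenzyme that reduces lipid peroxides, was higher, 0.17 ± 0.041 (SE, adjusted p = 0.000634) at Day 2 and 0.54 ± 0.030 (SE, adjusted p = 1.42e-68) at Day 4. *Txn1*, the thioredoxin that reduces PRDX2, was higher too, 0.13 ± 0.042 (SE, adjusted p = 0.0205) and 0.38 ± 0.035 (SE, adjusted p = 1.67e-24). *Prdx6* and the mitochondrial thioredoxin *Txn2* were lower at Day 4, -0.35 ± 0.031 (SE, adjusted p = 1.58e-27) and -0.44 ± 0.055 (SE, adjusted p = 2.62e-14). Of 11 genes related to the nucleotide and chromatin class, 6 were lower and 1 higher at Day 4. *Hdac1*, the close paralog of *Hdac2*, was lower by -0.25 ± 0.060 (SE, adjusted p = 0.0007) and -0.22 ± 0.042 (SE, adjusted p = 1.97e-06), and *Dctpp1*, another pyrophosphatase of the nucleotide pool, by -0.21 ± 0.048 (SE, adjusted p = 0.000276) and -0.20 ± 0.042 (SE, adjusted p = 8.2e-06). *Men1*, which joins PSIP1 in MLL complexes, was lower by -0.18 ± 0.060 (SE, adjusted p = 0.0195) and -0.28 ± 0.054 (SE, adjusted p = 2.21e-06). *Kmt2a*, the histone methyltransferase of those complexes, was higher at Day 2, 0.68 ± 0.18 (SE, adjusted p = 0.00196), and lower at Day 4, -0.36 ± 0.086 (SE, adjusted p = 0.000193). *Ung*, which removes uracil from DNA, was lower at Day 4, -0.23 ± 0.038 (SE, adjusted p = 1.46e-08).

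Of 10 genes related to the mitochondrial class, 4 were lower and 1 higher at Day 4. *Lrpprc*, a pentatricopeptide protein that stabilises mitochondrial mRNA and is on the list of bound genes, was lower on both days, -0.41 ± 0.039 (SE, adjusted p = 1.64e-23) and -0.62 ± 0.032 (SE, adjusted p = 1.36e-80). *Ptcd1* and *Atp5g1*, a gene for subunit c of ATP synthase, were lower at Day 4, -0.27 ± 0.073 (SE, adjusted p = 0.000925) and -0.19 ± 0.032 (SE, adjusted p = 5.2e-08), and *Fam173a* had 0.32 ± 0.14 (SE, adjusted p = 0.0553). In the lipid, lysosome and glycan class, 8 of 16 related genes were higher and 1 lower at Day 4. *Cds1*, which makes the CDP-diacylglycerol used by CDIPT, was higher by 0.41 ± 0.12 (SE, adjusted p = 0.0101) and 0.81 ± 0.14 (SE, adjusted p = 2.34e-07), and *Pi4ka*, which phosphorylates its product, by 0.18 ± 0.057 (SE, adjusted p = 0.0136) and 0.40 ± 0.055 (SE, adjusted p = 8.49e-12). *Hyal1*, the lysosomal hyaluronidase, was higher at Day 4, 0.45 ± 0.17 (SE, adjusted p = 0.0308).

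Among 21 genes related to the cytoskeleton and axon class, 5 were lower and 5 higher at Day 4. *Sept6*, another septin, was lower by -0.28 ± 0.082 (SE, adjusted p = 0.00658) and -0.73 ± 0.089 (SE, adjusted p = 1.09e-14). *Slit2*, a ligand of ROBO1, and *Ephb3*, a paralog of *Ephb2*, were higher on both days, 0.35 ± 0.088 (SE, adjusted p = 0.00116) and 0.65 ± 0.087 (SE, adjusted p = 3.23e-12) for *Slit2* and 0.23 ± 0.068 (SE, adjusted p = 0.00972) and 0.62 ± 0.074 (SE, adjusted p = 1.16e-15) for *Ephb3*. *Stmn3*, a paralog of *Stmn2*, was higher at Day 4, 0.59 ± 0.19 (SE, adjusted p = 0.00765). Of 6 genes related to the trafficking class, 3 were higher at Day 4. They were the proton pump genes *Atp6ap1*, 0.69 ± 0.061 (SE, adjusted p = 1.13e-27), and *Atp6v0c*, 0.20 ± 0.058 (SE, adjusted p = 0.0018), and the cargo receptor gene *Mia3*, 0.13 ± 0.045 (SE, adjusted p = 0.0156), while *Grip1*, a scaffold that GRIPAP1 binds, had 0.32 ± 0.17 (SE, adjusted p = 0.154). In the RNA and transcription class, *Med25*, a Mediator subunit related to PTOV1, had 0.089 ± 0.049 (SE, adjusted p = 0.161) at Day 4, and *Epb41l4a*, the gene beside *Epb41l4aos*, had 0.023 ± 0.059 (SE, adjusted p = 0.82).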

How the data were processed

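RNA-seq was measured in 12 libraries of mESCs, assigned by sample title to 4 groups of 3. The authors aligned stranded, paired reads from total RNA to GRCm38.p6 with STAR (2.6.0c) and estimated gene levels of GENCODE vM18 with RSEM. The deposited expected counts are RSEM estimates that share ambiguous reads between genes, and the deposited TPM values scale them by length. The deposited posterior SD was read as a score of that ambiguity. The authors' own tables of fold changes and p-values from DESeq2 (1.22.2) were not used. Expected counts were rounded and tested per day with DESeq2 (1.42.0, R 4.3.3), and edgeR (4.0.16) served as an alternative. Genes were called at an adjusted p below 0.05 if their mean normalised count exceeded 100. Positions came from the GENCODE vM21 annotation (GRCm38), promoter windows from RefSeq (GRCm38.p6), and the bound genes and probes from the study's supplementary lists. The members and lists were chosen with earlier results of these data known, and 6 genes were given a class later (*Oxr1*, *Them6*, *Gng3*, *Ablim1*, *Tspoap1* and *Gm14440*). Values per library are given for up to 3 genes per class with the highest EtOH level and for those with the lowest residual level, the extremes of pace and those near the limit. Related genes named are the 4 per class with the largest Day 4 change and those lower on both days. Replicates differed by more than counting noise (chi-square per degree of freedom from 3.05 to 9.17). The test was also run on simulated counts with the same extra spread between replicates in every gene. This setting is simpler than the data, and no conclusion is drawn from it. The alternatives were other scalings, pseudocounts of 1 and 0.01 CPM, minimum means of 1 and 5 CPM, a replicate block, effective lengths as offsets, no minimum mean, neighbours within 300 bases and each library left out.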

Additional observations from a re-analysis of the deposited data

Results flagged for a closer look

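The related genes *Dctd*, *Hdgfl2*, *Ogdh*, *Atp5g2*, *Gsk3b*, *Stmn1*, *Nhsl1* and *Sec24d* had differences of opposite sign on the days in CPM, with every OHT-labelled library on one side of every EtOH-labelled library at Day 2 and on the other side at Day 4. The log2 fold changes at Day 2 and Day 4 were 0.075 and -0.14 for *Dctd*, -0.14 and 0.14 for *Hdgfl2*, and 0.12 and -0.078 for *Ogdh*. They were -0.23 and 0.12 for *Atp5g2*, 0.32 and -0.16 for *Gsk3b*, and 0.029 and -0.10 for *Stmn1*. For *Nhsl1* they were 0.42 and -0.27, and for *Sec24d* 0.084 and -0.072. By DESeq2's test, *Hdgfl2*, *Atp5g2*, *Gsk3b* and *Nhsl1* were called on both days (adjusted p from 2.91e-05 to 0.0426). *Dctd* and *Stmn1* were called at Day 4 (adjusted p = 0.00472 and 0.0299) and not at Day 2 (0.397 and 0.743). *Ogdh* (0.0819 and 0.0915) and *Sec24d* (0.486 and 0.498) were called on neither day. The difference between the days was not tested. These genes were named for this pattern, and how often it occurs over all genes was not counted. Separation on a given day was common. Over all genes at 2 CPM or more, the OHT-labelled libraries lay below the EtOH-labelled ones for 17.1% at Day 2 and 30.1% at Day 4.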

How the results depend on the processing

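The number of genes halved on both days was 43 with DESeq2 size factors, which kept all 42, and 42 with TMM factors. It was 38 with 1 CPM added, 32 and 48 with a minimum of 5 and 1 CPM, and 41 to 44 when each library was left out, where *Gm14440* was the gene lost. When every OHT-labelled library had to lie at or below 50% of every EtOH-labelled library, 37 remained, without *Gm14440*, *Oxr1*, *Ppt2*, *Sept11* and *Tspoap1*. With library totals as size factors, 638 genes were lower at Day 2, and 6 related genes. With the replicate number as a block, the rule on ratios of same-numbered libraries gave 43 genes, and the test gave 659 genes lower and 658 higher at Day 2, 6 related genes lower and 0 neighbours higher. The numbers did not pair the libraries: correlations of deviations from the group means ran from -0.13 to 0.14 between labels of a day, and 1 of 6 EtOH-labelled libraries correlated best with its own number. The block left the other counts within 1.5 times. The stricter motif matched 0 genes, by its construction a subset. Leaving out each library gave 586 to 1122 genes lower and 615 to 1052 higher at Day 2, 6 to 12 related genes lower at Day 2 and 15 to 21 higher at Day 4, 0 to 1 neighbours higher at Day 2, and 3 to 6 of the 42 genes higher in vehicle at Day 4. Fewer libraries enter these fits, and the cause was otherwise not tested.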
